A study of Homo sapiens with 4 samples.

Results

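The genes described here are 37 genes of the amino acid response controlled by the transcription factor ATF4 and of the unfolded protein response of the endoplasmic reticulum (ER). They were named by symbol, and all 37 were found among the 26484 gene symbols of the deposited table. Poly(A)-selected, strand-specific RNA sequencing libraries had been made from A375, a human melanoma cell line grown in DMEM. Of the 4 libraries, 2 came from the parental line, labelled p53 wild type, and 2 from a p53 knockout (p53-/-) of that line made with CRISPR-Cas9. The knockout libraries carry the numbers 2 and 8 in the table and are named by them. The labels do not say whether these are clones or cultures, so a p-value reflects how these libraries vary, which may be technical. No edited line that kept p53 was among the samples, so effects of p53 loss and of editing or selecting cells cannot be told apart.

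Protein that fails to fold in the ER is sensed by 3 membrane proteins, PERK (EIF2AK3), IRE1 (ERN1) and ATF6. IRE1 splices the mRNA of XBP1, ATF6 is released by proteolysis as a transcription factor, and both raise chaperones and degradation factors of the ER. PERK, and GCN2 (EIF2AK4) when amino acids run short, phosphorylate the initiation factor eIF2, which lowers general translation while favouring that of ATF4. Much of this control acts on translation, splicing, phosphorylation or cleavage, none of which a count of mRNA reads measures. ATF4 in turn raises genes that make and import amino acids.

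Read totals ran from 29230554 in parental library 1 to 36331894 in parental library 2, and the members had between 340 and 148447 reads over the 4 libraries. Values are normalized counts, which are reads divided by 1 factor per library, and the parental pair (1, then 2) is given before the knockout pair (2, then 8). The knockout pair was less alike than the parental pair, with a chi-square per degree of freedom of 61.6 against 5.57. Summed melanocyte markers had 33847 and 33215 normalized counts against 30760 and 28188. SOX10 made up most of these sums, with 30033 and 29587 against 28125 and 25662. The pigmentation genes MLANA and TYR had 0 reads in every library, which allows up to 3 reads in each. Summed markers of undifferentiated melanoma had 30996 and 28478 against 25236 and 28087. Summed fibroblast markers lay between 998 and 1303 and summed blood markers between 10.7 and 17.5 in all libraries. Summed epithelial markers had 7702 and 7520 against 7062 and 6784, mostly from KRT8 and KRT18, with CDH1 at 0 reads. The part of the lower SOX10 and of the lower melanocyte, undifferentiated melanoma and epithelial sums in the results was not tested.

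Short elements before the start sites of several members are shown because they are textbook binding sites of the factors of both branches. RefSeq windows (GRCh38.p14) of 250 bases before to 50 bases after the start were found for 34 of the 37 members, all but PSPH, SHMT2 and ALDH1L2. The ER stress element, bound by ATF6 with NF-Y, was searched on both strands as CCAAT, any 9 bases and CCACG. It occurred in 4 members (HSPA5, HSP90B1, CRELD2 and XBP1) and in 0.0806% of 27305 RefSeq promoters. The second ER stress element, ATTGGNCCACG, occurred in HERPUD1 and SDF2L1 and in 0.0549% of promoters. TGACGTGG, the core of the UPR element, occurred in 0 members and in 0.795% of promoters. TGATGNAA, the core of the C/EBP-ATF element that ATF4 binds, occurred in 5 members (ASNS, CHAC1, HERPUD1, SLC7A1 and SLC3A2) and in 3.67% of promoters. A match describes these letters in this window only. The matches of SLC7A1 and SLC3A2 lie 7 to 14 and 37 to 44 bases after the start and are not printed. Each line below gives 1 match before the start in capitals with 5 bases on either side, read along the strand of the gene. A match on the other strand appears as its reverse complement.
HSPA5, chr9:125241386-125241414, minus strand, 48 to 66 bases before the start: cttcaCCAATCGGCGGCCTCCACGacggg
HSP90B1, chr12:103930211-103930239, plus strand, 176 to 194 bases before the start: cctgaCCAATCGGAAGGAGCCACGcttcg
HSP90B1, chr12:103930316-103930344, plus strand, 71 to 89 bases before the start: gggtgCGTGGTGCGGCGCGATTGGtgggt
CRELD2, chr22:49918549-49918577, plus strand, 62 to 80 bases before the start: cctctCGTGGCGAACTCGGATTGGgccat
XBP1, chr22:28800598-28800626, minus strand, 34 to 52 bases before the start: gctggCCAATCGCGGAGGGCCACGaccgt
HERPUD1, chr16:56932020-56932040, plus strand, 107 to 117 bases before the start: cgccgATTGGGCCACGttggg
SDF2L1, chr22:21642109-21642129, plus strand, 178 to 188 bases before the start: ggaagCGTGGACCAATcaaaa
ASNS, chr7:97872464-97872481, minus strand, 61 to 68 bases before the start: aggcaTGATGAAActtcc
CHAC1, chr15:40953257-40953274, plus strand, 202 to 209 bases before the start: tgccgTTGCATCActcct
HERPUD1, chr16:56931961-56931978, plus strand, 169 to 176 bases before the start: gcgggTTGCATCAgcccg

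Most members were somewhat higher in the knockout than in the parental line, at most 1.47 times the parental mean in either knockout library, and none was called. The mRNA of ATF4 itself differed little, while the amino acid transporters SLC7A5, SLC3A2 and SLC7A1 and the ER degradation genes EDEM1, SEL1L and HERPUD1 were higher in both knockout libraries. EIF2AK4, which encodes the amino acid sensor GCN2, and ALDH1L2 were lower in both. The general ER chaperones HSPA5 and PDIA4 were higher in one knockout library (2) and lower in the other (8) than in the parental pair. In bulk RNA, fewer cells of a kind and less RNA per cell cannot be told apart.

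limma was fitted with a trend to log2(normalized count + 1) over 15431 genes, with Benjamini-Hochberg adjustment. It called 0 members at an adjusted p of 0.05, as it called 0% of all genes in either direction, and the adjusted p of members by limma ranged from 0.282 to 0.989. The quasi-likelihood test of edgeR, run on recovered reads, called 0 members and 0% of all genes, and DESeq2 called 0 members, against 1.21% of its 16330 genes higher and 1.22% lower. At an unadjusted limma p under 0.05, 8 members were higher and 2 lower, against 5.85% and 6.16% of all genes. The same counts came from edgeR (6.13% and 5.97% of all genes) and limma-voom (5.66% and 6.2%), and DESeq2 gave 7 and 2 (5.25% and 4.7%). The 8 by limma were SLC7A5, EDEM1, SLC3A2, PSPH, CEBPG, SLC7A1, DNAJC3 and SEL1L, and the 2 were EIF2AK4 and ALDH1L2. Without parental library 1 the limma counts were 0 and 0 (1.46% and 0.97% of all genes), and without parental library 2 they were 2 and 0 (1.43% and 1.42%). Without knockout library 2 they were 13 and 3 (14.6% and 16.9%), and without knockout library 8 they were 18 and 3 (20.7% and 22.3%), so that the numbers over all genes were larger too.

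With a knockout library left out, the residual spread comes from the parental pair alone and many genes pass the adjusted threshold. Without knockout library 2, limma called 11 members higher and 2 lower (9.33% and 11.2% of all genes). Without knockout library 8 it called 15 higher and 3 lower (16.1% and 17.7% of all genes).

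Both knockout libraries lay above both parental ones in 20 of the 37 members and below both in 2, against 22.8% and 23.7% of all genes tested. Among the 35 members with a mean of at least 500 normalized counts, the numbers were 18 and 2, against 22.4% and 25.1% of the 9416 genes at that level. The median log2 fold change of the members was 0.13, beside -0.0057 over all genes. Knockout library 2 had a median log2 ratio of 0.17 to the parental mean over the members, and knockout library 8 one of 0.08. Between the parental libraries, 2 over 1, it was 0.0082. Past 1.2-fold of the parental mean, knockout library 2 had 13 members higher and 3 lower (20.1% and 23.1% of all genes), and knockout library 8 had 9 and 2 (16.3% and 16.9%). Counted without a fold limit, 28 members lay above both parental libraries and 5 below them in knockout library 2 (42.5% and 43.5% of all genes). In knockout library 8 these numbers were 25 and 9 (40.2% and 40.8%). The knockout libraries lay on opposite sides of the parental pair in 7 members that were above it in knockout library 2 and in 3 that were below it there. The share of all genes with knockout libraries on opposite sides was not counted, so these numbers have no background to be read against.

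**Figure D1:**
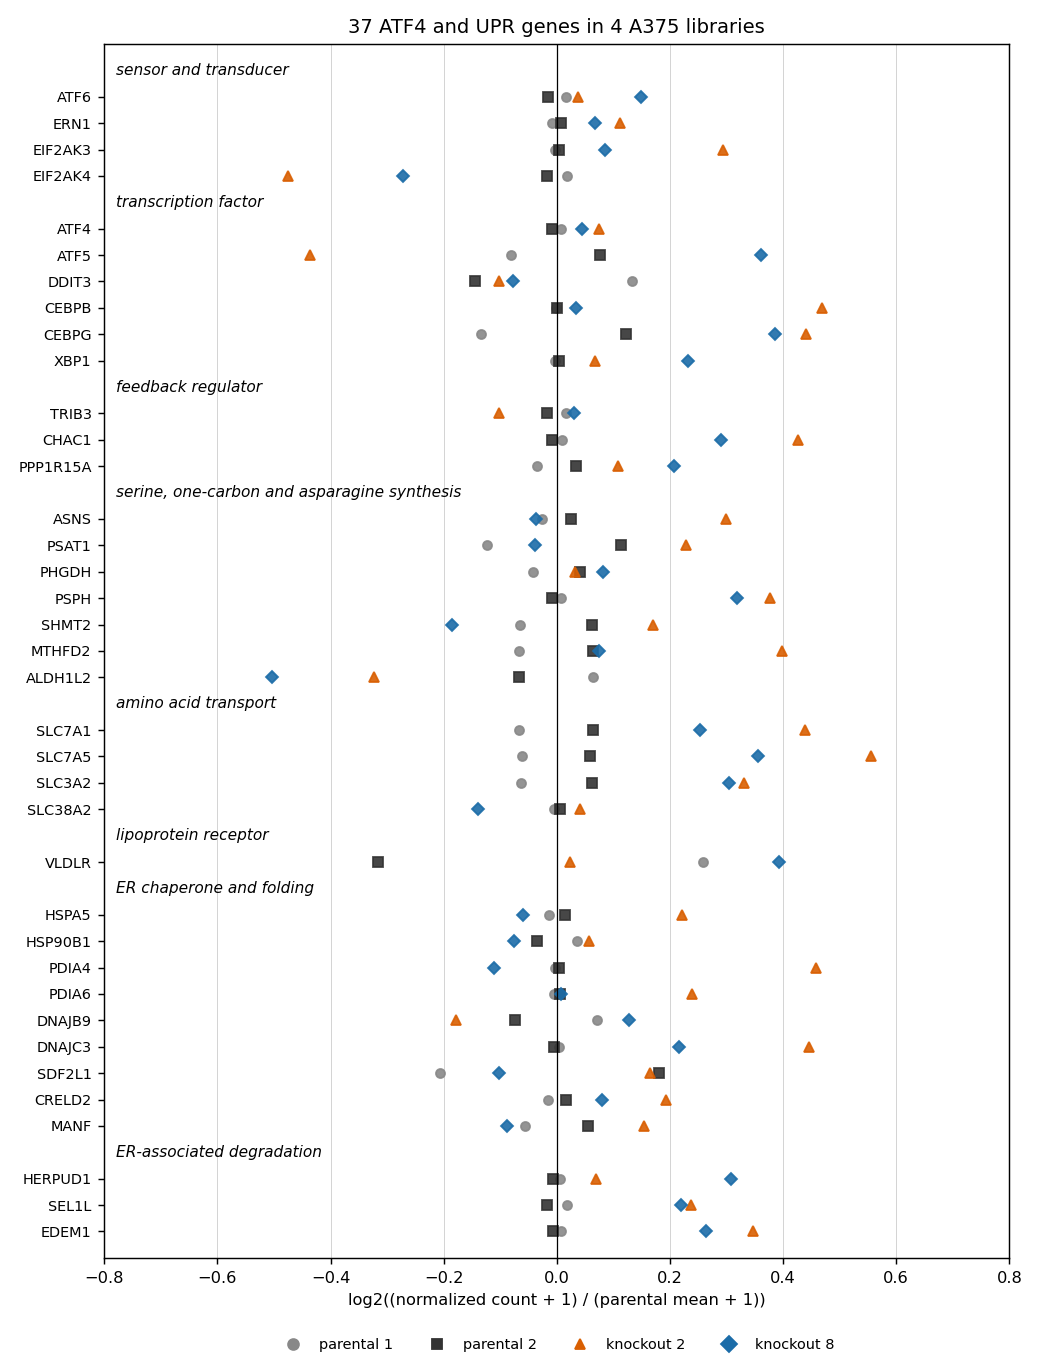
Each row is a member and each symbol a library, placed at the log2 ratio of its normalized count plus 1 to the parental mean plus 1, with members grouped by role. Both knockout symbols lie to the right of both parental symbols in 20 members and to the left in 2, EIF2AK4 and ALDH1L2.

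Neighbours of each member were examined for shifts shared by a chromosome segment. Over up to 20 genes on each side with a mean of at least 100 normalized counts, their median log2 ratio ranged from -0.13 to 0.17 for knockout library 2 and from -0.10 to 0.08 for knockout library 8. Over 11685 genes with such a value, the central 95% lay between -0.39 and 0.14, and between -0.27 and 0.205. PDIA6 alone of the members had neighbours beyond these bounds, with a median of 0.17 in knockout library 2.

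Per length, the members spanned a wide range of parental mRNA levels. Levels are given as normalized counts per kb of merged GENCODE 29 exon, since longer genes collect more reads. HSP90B1, the ER chaperone GRP94, had 8085 and 7700 per kb in the parental pair, and HSPA5, the chaperone BiP that holds the 3 sensors inactive, had 5879 and 5995. ATF4 ranked 4th among the members, at 3013 and 2980 per kb. At the lower end stood CHAC1 with 36.2 and 35.8 and ERN1 with 17.6 and 17.8 per kb. The chaperones HSP90B1 and HSPA5 thus headed the order and a sensor closed it, with amino acid transporters and synthetic enzymes between them. Not all of the chaperone group stood high, since CRELD2 ranked 29th and DNAJB9 30th. Lengths are of all annotated exons merged, not of the mRNA present in these cells.

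**Figure D2:**
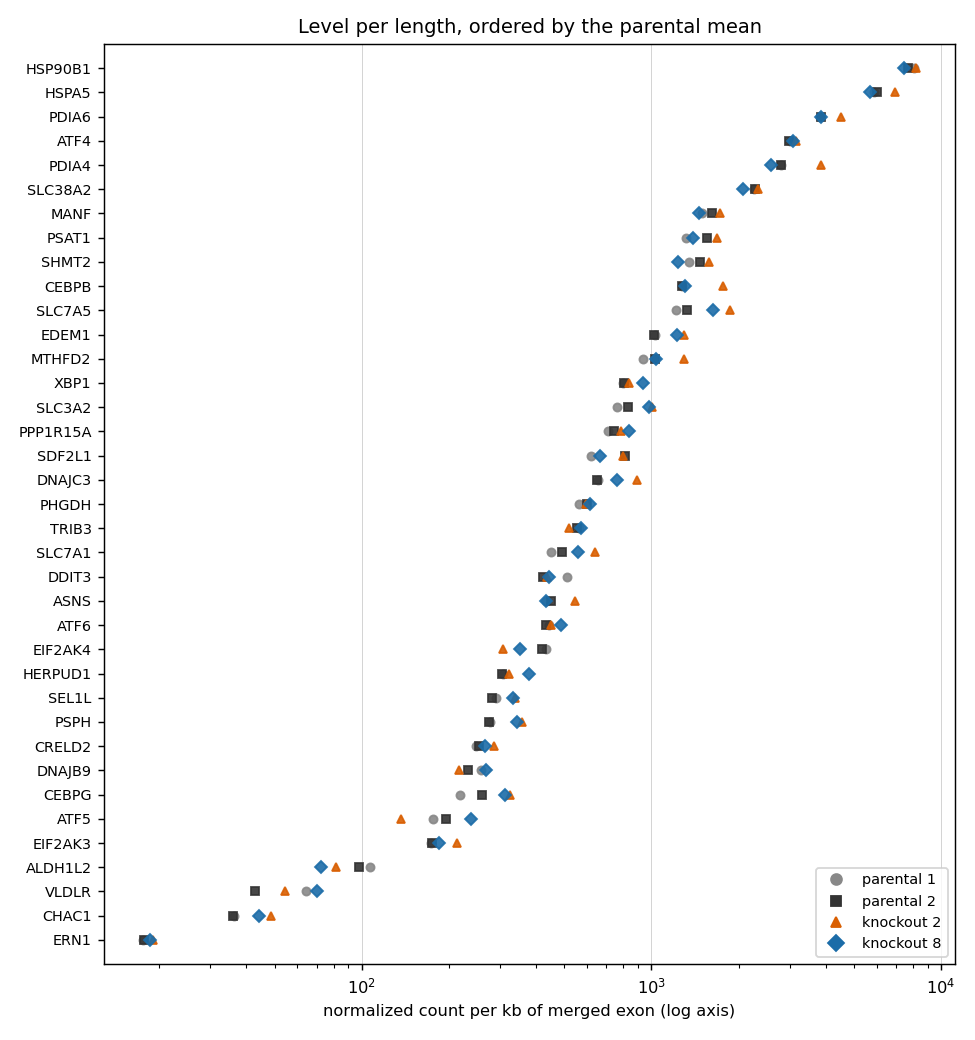
Level per length of each member in each library, in normalized counts per kb of merged exon on a log axis, ordered by the parental mean. HSP90B1 is at the top with 8085 and 7700 in the parental libraries and ERN1 at the bottom with 17.6 and 17.8; differences between libraries are small beside those between genes.

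Among the sensors, none of which was called, the kinase of amino acid shortage was lower in both knockout libraries and those of the ER higher. Of all genes tested, 22.8% were higher in both knockout libraries than in both parental ones and 23.7% lower. EIF2AK4 (GCN2, chr15:39934146-40035591, 39 merged exons) counted 5154 and 5032 in the parental pair and 3666 and 4216 in the knockout pair, as normalized counts. Both knockout values lay below both parental ones, with a limma log2 fold change of -0.37 ± 0.10 (SE, limma adjusted p = 0.313). EIF2AK3 (PERK) had 942 and 946 against 1158 and 1002, higher in both knockout libraries (log2 fold change 0.19 ± 0.11, limma adjusted p = 0.554). ATF6, with 3501 and 3427 against 3555 and 3838, and ERN1, with 191 and 193 against 207 and 201, were also above the parental values in both. For ATF6 the difference barely exceeded its standard error and for ERN1 it was smaller than it (limma log2 fold changes 0.09 ± 0.08 and 0.09 ± 0.15).

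ATF4, the activator of the amino acid response, had 7575 and 7491 normalized counts against 7932 and 7766. The knockout values were 1.05 and 1.03 times the parental mean, and the limma log2 fold change was 0.06 ± 0.07 (limma adjusted p = 0.768). Its mRNA level says nothing of its protein, which is set mainly by translation. CEBPG, a C/EBP factor that pairs with ATF4, had 962 and 1148 against 1432 and 1378. It was higher in both knockout libraries, by more than the gap between the parental ones (log2 fold change 0.42 ± 0.12, limma adjusted p = 0.330). CEBPB, another C/EBP factor, had 2494 and 2498 against 3456 (knockout 2) and 2555 (knockout 8), the latter close to the parental pair.

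The other factors did not share a direction. XBP1, the factor made by IRE1 splicing, had 2413 and 2427 normalized counts against 2537 and 2841 (log2 fold change 0.15 ± 0.09, limma adjusted p = 0.562), summed over its spliced and unspliced mRNA. DDIT3 (CHOP), the proapoptotic factor downstream of ATF4, had 671 and 553 against 570 and 580, so that the knockout values lay between the parental ones. ATF5, a relative of ATF4 that is itself a target of the pathway, had 519 and 578 against 405 (knockout 2) and 704 (knockout 8). Its knockout libraries lay on either side of the parental pair. Exons of DDIT3 and ATF5 overlap exons of genes on the other strand (MARS and MBD6, and IL4I1 and NUP62), as those of 14 members do in GENCODE 29 (also SHMT2, MTHFD2, ALDH1L2, CEBPB, SLC7A5, VLDLR, EIF2AK3, HSP90B1, PDIA6, DNAJB9, CRELD2 and EDEM1). The strand setting of the counting is not given in the sources used here.

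Of the 3 feedback regulators none was called. CHAC1, which degrades glutathione, had 74.6 and 73.7 normalized counts against 99.98 and 90.8, higher in both knockout libraries but at a low count (log2 fold change 0.36 ± 0.21, limma adjusted p = 0.546). PPP1R15A (GADD34), which directs the dephosphorylation of eIF2, had 2197 and 2306 against 2427 and 2598 (0.16 ± 0.08 by limma, adjusted p = 0.521). TRIB3, a pseudokinase that restrains ATF4, had 1940 and 1896 against 1787 and 1958, with the groups overlapping.

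Transporters for large neutral and basic amino acids were higher in both knockout libraries, and SLC7A5 had the largest log2 fold change of the members in either direction. SLC7A5 (LAT1, chr16:87830023-87869488, 11 merged exons), which imports leucine and other large neutral amino acids, counted 5796 and 6302 in the parental pair and 8893 and 7742 in the knockout pair. The lower knockout value exceeded the higher parental value, and the limma log2 fold change was 0.46 ± 0.11 (limma adjusted p = 0.282). DESeq2 gave SLC7A5 an adjusted p of 0.0540, the smallest among the members. SLC3A2 (4F2hc, chr11:62856102-62888875), the heavy chain that SLC7A5 needs to reach the membrane, had 3950 and 4309 against 5196 and 5098 (log2 fold change 0.32 ± 0.08, limma adjusted p = 0.310). Both subunits of this transporter thus had higher mRNA in each knockout library, 1.47 and 1.28 times the parental mean for SLC7A5 and 1.26 and 1.23 times for SLC3A2.

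SLC7A1 (CAT1, chr13:29509410-29595688), which imports arginine and lysine, had 3450 and 3782 normalized counts against 4902 and 4310 (log2 fold change 0.35 ± 0.10, limma adjusted p = 0.343). SLC38A2 (SNAT2), which imports small neutral amino acids such as glutamine, did not share this pattern, with 14965 and 15084 against 15449 and 13639. SLC7A5P1 and SLC7A5P2, copies of part of SLC7A5, had 28.9 to 68.4 normalized counts over the libraries, and reads shared between the copies and the gene were not tested. VLDLR, a lipoprotein receptor that ATF4 and PERK induce, had 598 and 401 against 507 and 655. Its parental libraries differed by 0.57 on the log2 scale, the widest such gap of the members and wider than its fold change.

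**Figure D3:**
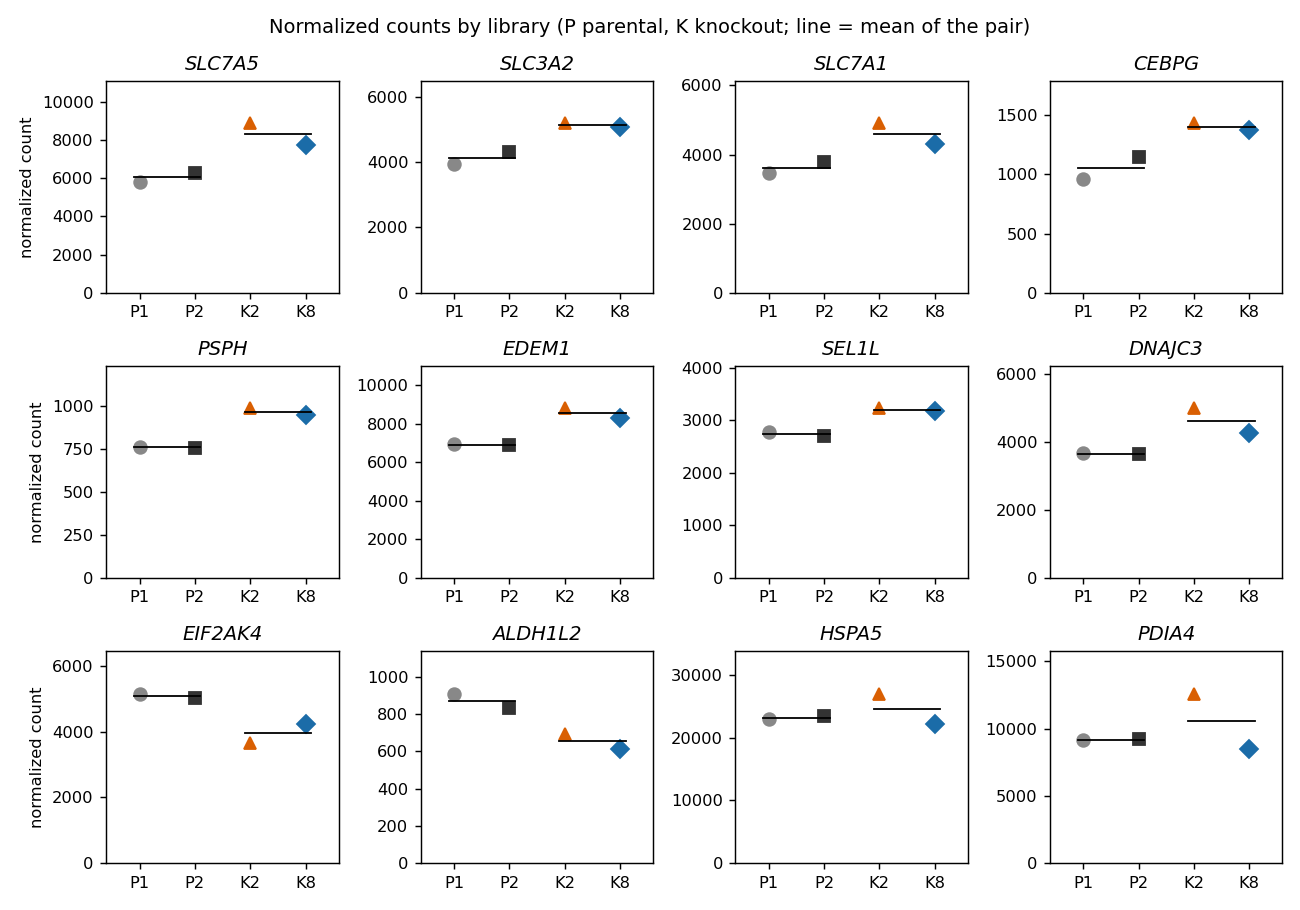
Normalized counts of 12 members in parental libraries 1 and 2 (P1, P2) and knockout libraries 2 and 8 (K2, K8), with a line at the mean of each pair and axes from 0. The first 8 genes are higher in both knockout libraries, EIF2AK4 and ALDH1L2 lower in both, and HSPA5 and PDIA4 are highest in knockout library 2 and lowest in knockout library 8.

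The enzymes that make serine, glycine, one-carbon units and asparagine did not share a direction. PSPH, the phosphatase of the last step of serine synthesis, had 765 and 757 normalized counts against 988 and 949. The parental values were close together and both knockout values lay above them (log2 fold change 0.35 ± 0.09, limma adjusted p = 0.317). PHGDH and PSAT1, the enzymes of the steps before it, overlapped between the groups, PHGDH with 5197 and 5506 against 5469 and 5664 and PSAT1 with 2881 and 3394 against 3676 and 3053. ALDH1L2, a mitochondrial formyltetrahydrofolate dehydrogenase, went the other way, with 910 and 831 against 696 and 613. It was lower in both knockout libraries (log2 fold change -0.41 ± 0.12, limma adjusted p = 0.341).

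The remaining enzymes were higher in knockout library 2 than in either parental library and near or below them in knockout library 8. MTHFD2, a mitochondrial folate enzyme, had 4574 and 5004 normalized counts against 6310 and 5042, both above the parental pair but the second by little. ASNS, asparagine synthetase and a standard reporter of ATF4 activity, had 1935 and 2005 against 2425 and 1921. SHMT2, which converts serine to glycine in mitochondria, had 6519 and 7128 against 7673 and 6004. For ASNS and SHMT2 the knockout libraries lay on either side of the parental pair, and the limma log2 fold changes were 0.13 ± 0.13 and -0.01 ± 0.14, the latter 0.0033 by edgeR. MTHFD2P1, a copy of MTHFD2, had 8.77 to 22.5 normalized counts.

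Among ER chaperones and folding enzymes, HSPA5, PDIA4, HSP90B1 and MANF showed the same parting of the knockout libraries. HSPA5 (BiP) had 22973 and 23427 normalized counts against 27038 and 22266. PDIA4, a protein disulphide isomerase, had 9154 and 9201 against 12602 and 8494, which is 1.37 and 0.926 times the parental mean. PDIA6, a related enzyme, had 15661 and 15787 against 18545 and 15811, both above the parental pair but the second by little. Neighbours of PDIA6 had a median log2 ratio of 0.17 in knockout library 2, and the part of this shift in its value was not tested. Of the 9 members in this group, 8 were higher in knockout library 2 than in knockout library 8, all but DNAJB9. This also held for 26 of all 37 members, and the share over all genes was not counted. Over all genes tested, the median log2 ratio of knockout library 8 to knockout library 2 was 0.0038. The median log2 ratios of the 9 to the parental mean were 0.19 in knockout library 2 and -0.06 in knockout library 8. With 1 library each, this difference between the knockout libraries was not tested.

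DNAJC3 (p58IPK, chr13:95677139-95794989), a co-chaperone that also inhibits PERK, was the 1 member of this group higher in both knockout libraries at an unadjusted p under 0.05. It had 3664 and 3643 normalized counts against 4978 and 4246 (log2 fold change 0.33 ± 0.10, limma adjusted p = 0.362). CRELD2, with 1284 and 1312 against 1484 and 1372, was higher in both by a smaller margin (0.14 ± 0.09 by limma). HSP90B1 had 37958 and 36152 against 38552 and 35138, SDF2L1, a cofactor of BiP, had 680 and 890 against 880 and 732, and MANF, a secreted factor that binds BiP, had 3563 and 3850 against 4125 and 3486. In these 3 genes and in DNAJB9, a co-chaperone with 730 and 660 against 615 and 760, the groups overlapped. HSP90B2P, a copy of HSP90B1, had 199.96 to 264.7 normalized counts.

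The 3 genes of ER-associated degradation among the members were all higher in both knockout libraries, as were 22.8% of all genes tested. Outside the members, 7 of 17 tested genes of this process were. EDEM1 (chr3:5187646-5219957), which marks misfolded glycoproteins for removal, had 6943 and 6879 normalized counts against 8790 and 8300. The parental values differed by less than 1% of their level and both knockout values lay above them (log2 fold change 0.31 ± 0.08, limma adjusted p = 0.306). SEL1L (chr14:81471549-81533861), the adaptor of the HRD1 ubiquitin ligase, had 2770 and 2701 against 3224 and 3184 (0.23 ± 0.07 by limma, limma adjusted p = 0.368). HERPUD1, which helps assemble that complex, had 1585 and 1572 against 1656 and 1955 (0.19 ± 0.11 by limma, adjusted p = 0.552), with most of its difference in knockout library 8.

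Genes that hold the elements printed above were counted where the table lists them under their RefSeq symbol. Those under older symbols were left out, among them AARS1, CARS1, IARS1, MARS1, NARS1 and TARS1, which hold TGATGNAA. Of 14 tested genes with the first element, both knockout libraries were higher in 3 and lower in 5, against 22.8% and 23.7% of all genes tested, and their median log2 fold change by limma was 0.02. ERO1B, an ER oxidase, was the furthest from 0 among them. Of 11 with the second element, 5 were higher and 1 lower, with a median of 0.19. Of 199 tested genes with TGATGNAA, 54 were higher and 46 lower, with a median of 0.01.

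Other genes of the pathway were taken from 7 lists of symbols, with 127 genes of which 123 were tested. limma called 0 of them. At an unadjusted limma p under 0.05, 10 were higher and 9 lower, against 5.85% and 6.16% of all genes. Without parental library 1 these were 0 and 1 (1.46% and 0.97% of all genes), and without parental library 2 they were 1 and 2 (1.43% and 1.42%). Without knockout library 2 they were 23 and 28 (14.6% and 16.9%), and without knockout library 8 they were 37 and 23 (20.7% and 22.3%). DESeq2 called 1 higher and 1 lower, no larger a share than its 1.21% and 1.22% of all genes. SELENOS (listed as VIMP), a membrane protein of ER-associated degradation, had 1271 and 1405 normalized counts against 1827 and 1930 (DESeq2 adjusted p = 0.0450, limma adjusted p = 0.259). ERO1B had 4012 and 3633 against 1607 and 2325 (DESeq2 adjusted p = 0.00110, limma adjusted p = 0.259), with a limma log2 fold change of -0.98 ± 0.20. The neighbours of ERO1B had a median log2 ratio of -0.23 in knockout library 8 and of -0.06 in the other, and the part of this shift in its value was not tested.

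Of 28 other ATF4 targets tested, 7 were above both parental libraries in each knockout library and 10 below (22.8% and 23.7% of all genes), with a median log2 fold change of -0.09 by limma. BCAT1, a branched-chain aminotransferase, had 3876 and 3856 against 5868 and 4723 (limma adjusted p = 0.324), and SLC6A9, a glycine transporter, 362.9 and 374.5 against 590.4 and 462.9 (limma adjusted p = 0.373). PYCR1, an enzyme of proline synthesis, was lower with 2091 and 2094 against 1702 and 1766 (limma adjusted p = 0.329), and SHMT1, the cytosolic counterpart of SHMT2, with 3403 and 3516 against 2950 and 2876 (limma adjusted p = 0.344). FGF21, a secreted hormone, had 0 reads in every library, which allows up to 3 reads in each.

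Cytosolic aminoacyl-tRNA synthetases, many of which ATF4 induces, numbered 20, and both knockout libraries were higher in 3 and lower in 6 (22.8% and 23.7% of all genes), with a median log2 fold change of -0.02. VARS1, the valine enzyme, had 8277 and 8658 against 6968 and 6728 (limma adjusted p = 0.306). FARSB was higher with 1908 and 2039 against 2198 and 2515, and its neighbours had a median log2 ratio of 0.42 in knockout library 8. The eIF2 and eIF2B machinery had 1 gene higher and 3 lower of 14, against the same shares of all genes, with a median of -0.05. EIF2S1, the phosphorylated subunit of eIF2, was the higher one with 3719 and 3973 against 4477 and 4044 (limma adjusted p = 0.572). EIF2A was among the lower ones with 7879 and 7343 against 6184 and 7083 (limma adjusted p = 0.513). Despite its name, EIF2A encodes a separate initiation factor and not a subunit of eIF2.

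Of 15 genes of ER translocation and glycosylation, both knockout libraries were higher in 10 and lower in 2 (22.8% and 23.7% of all genes), with a median log2 fold change of 0.14 by limma. SPCS2, a signal peptidase subunit, had 2265 and 2419 against 3007 and 2825 (limma adjusted p = 0.315), and SEC61B, a subunit of the translocation channel, 1724 and 1853 against 2190 and 2173 (limma adjusted p = 0.330). Of 20 other chaperones and folding enzymes, 10 were higher and 4 lower, the latter near the share of all genes, with a median of 0.12. ERP44, which retains unfinished proteins, had 2420 and 2442 against 2988 and 3133 (limma adjusted p = 0.280), while FKBP14, a prolyl isomerase, had 1076 and 1067 against 614 and 833 (limma adjusted p = 0.341).

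Of 17 tested genes of ER-associated degradation outside the members, 7 were higher and 1 lower (22.8% and 23.7% of all genes), with a median of 0.08, and of 9 genes of sensors and their processing 5 were higher and 2 lower, with a median of 0.11. CREB3L4, a membrane-bound factor related to ATF6, was lower with 1017 and 1009 against 785 and 807 (limma adjusted p = 0.313). WFS1, of the same list, was higher with 753 and 697 against 1004 and 828 (limma adjusted p = 0.438). HYOU1, an ER chaperone with the second ER stress element, had 10552 and 10937 against 18210 (knockout 2) and 11554 (knockout 8). Its neighbours had a median log2 ratio of 0.40 in knockout library 2, and the part of this shift in its value was not tested.

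**Figure D4:**
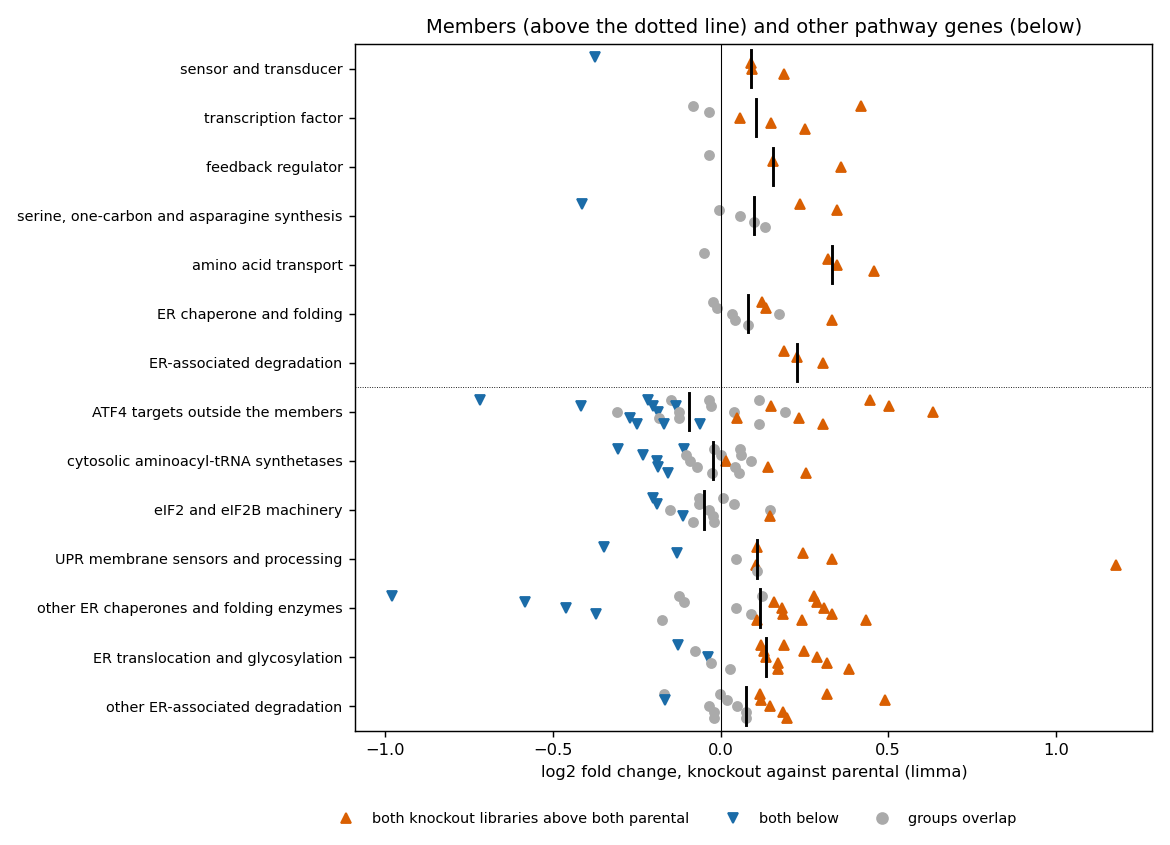
limma log2 fold change of each gene, knockout against parental, by list, with members above the dotted line (VLDLR left out) and the other pathway genes below it. Triangles mark genes whose 2 knockout libraries both lie above or below both parental ones, grey circles genes whose groups overlap, and black bars the median of a list, which is 0.33 for amino acid transport and -0.09 for the other ATF4 targets.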

How the data were processed

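Each value of the deposited table is a normalized signal: reads of a gene which the authors scaled by a factor for that library (0.912, 1.14, 0.950 and 1.02 for parental 1, parental 2, knockout 2 and knockout 8), as the values themselves reveal. Programs named in the submitters' processing notes are STAR, HTSeq, DESeq2, Picard and deepTools, with hg38; no version, annotation or strand setting was found for them. Whole reads were recovered from the step of each library (100% of values within 0.001), and gene length is uncorrected. Floors cover counting error only; a count of 0 allows up to 3 reads.

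limma 3.58.1 (R 4.3.3) was fitted with a trend to log2(normalized count + 1), over 15431 genes with at least 10 in at least 2 libraries, threshold 0.05. The code was first run on simulated counts, with a pass condition only at a low fixed spread. That run does not show what fold change could be called in these libraries. With all 4 libraries, the smallest limma adjusted p over all genes was 0.121. Alternatives were edgeR 4.0.16, DESeq2 1.42.0 and limma-voom on the recovered reads, TMM factors, a pseudocount of 0.1, other filters and leaving out each library. No permutation test was used, since 2 libraries against 2 cannot reach the threshold. Members, lists and motifs were chosen with earlier results of these data known. All 37 members are named. In each pathway list, the rule gives up to 2 genes per direction with the smallest limma p whose groups do not overlap, of which a selection is printed; FGF21 and HYOU1 were named after their values were seen. Of 127 pathway genes, 22 were matched through older symbols. Gene positions come from GENCODE 29 and promoters from RefSeq. The result for the targeted gene is not reported here.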

Additional observations from a re-analysis of the deposited data

How the results depend on the processing

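With all 4 libraries, 35 of the 37 members kept their direction and their side of the threshold under every alternative test, scaling, pseudocount and filter. The other 2 turned from slightly negative to slightly positive: ATF5 with 0.017 by edgeR and 0.017 by DESeq2, and SHMT2 with 0.0033 by edgeR and 0.0030 by DESeq2. The median log2 fold change of members was 0.132 and became 0.138 by edgeR. Among the other pathway genes, the adjusted calls were 0 by limma and 1 higher and 1 lower by DESeq2. In the 250 bases before the start alone, 3 members in place of 5 held TGATGNAA. No paired analysis was possible because the table numbers its knockout libraries 2 and 8 and its parental ones 1 and 2, so that fewer than 2 numbers are shared and the labelled replicates cannot be matched.

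Leaving out each library in turn, 23 of 37 members kept their direction. Called members ranged from 0 to 15 (higher) and from 0 to 3 (lower), and called pathway genes from 0 to 30 and from 0 to 21, the highest values without knockout library 8, where residual spread comes from the parental pair alone. At an unadjusted p under 0.05, members ranged from 0 to 18 and from 0 to 3, and pathway genes from 0 to 37 and from 1 to 28. Members higher in all remaining knockout libraries ranged from 20 to 28 and those lower from 2 to 9, the latter 9 without knockout library 2 and 5 without knockout library 8, and 3 without either parental library. Over all genes, 42.5% were higher and 43.5% lower without knockout library 8, and 40.2% and 40.8% without knockout library 2. With all 4 libraries these shares were 22.8% and 23.7%, and without a parental library they were not counted. The median log2 fold change of members ranged from 0.080 to 0.177, their median log2 ratio in knockout library 2 from 0.115 to 0.219 and that in knockout library 8 from 0.064 to 0.096.

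The other 14 members reversed without 1 library, with log2 fold changes from -0.43 to 0.36 (ATF5), -0.22 to 0.056 (DDIT3), -0.10 to 0.030 (TRIB3), -0.036 to 0.30 (ASNS), -0.035 to 0.23 (PSAT1), -0.18 to 0.17 (SHMT2), -0.14 to 0.040 (SLC38A2), -0.051 to 0.52 (VLDLR), -0.059 to 0.22 (HSPA5), -0.076 to 0.058 (HSP90B1), -0.11 to 0.46 (PDIA4), -0.18 to 0.13 (DNAJB9), -0.15 to 0.24 (SDF2L1) and -0.088 to 0.16 (MANF). The cause was not tested. With 2 libraries a group, depth was not tested apart from the spread between libraries.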
